A study of Mus musculus with 12 samples.

Results

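Intact corneas of mice null for both Apoe and Dscr1 (double KO, 2 arrays) were compared with intact corneas of mice null for Dscr1 alone (Dscr1KO, 2 arrays). These 4 samples, chosen by their titles, are part of a series of 12 Affymetrix arrays of whole mouse cornea. All mice carry the strain label C57BL/6J, and both groups carry the genotype Dscr-1-/-, so that the genotype ApoE-/- is what sets them apart. The other intact corneas are wild type (WT, 2 arrays) and ApoE-/- (ApoeKO, 2 arrays). The remaining 4 arrays are sutured corneas, 1 each of WT at day 5, Dscr-1-/- at day 5, WT at day 7 and Dscr-1 transgenic (Tg) at day 7. The labels call the 2 intact arrays of a genotype biological replicates. The p-values measure a spread pooled over the replicates of all 4 intact genotypes, and not that of the 2 compared groups alone. The sources used here do not give sex, age, the design of the null alleles or the promoter of the transgene. The labels of 1 array disagree with each other. The title and genotype of Dscr1KO replicate 2 give Dscr-1-/-, while its source text gives ApoE-/-, and it was kept in the group of its title.

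Apoe encodes apolipoprotein E, a secreted carrier of cholesterol and other lipids that binds receptors of the LDL receptor family and takes part in the uptake of lipoproteins and in the efflux of cholesterol from macrophages. Dscr1 is the older name of Rcan1, whose protein binds the phosphatase calcineurin and restrains its activation of NFAT transcription factors. In endothelial cells Rcan1 is itself a target of calcineurin and NFAT. The cornea is a transparent tissue normally free of blood vessels, with a stratified epithelium marked by keratin 12, a stroma of collagen and small proteoglycans made by keratocytes, and an inner endothelium that pumps fluid.

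Of 12711 genes tested, 3 passed an adjusted p of 0.05 in double KO against Dscr1KO, which is 0.0236% of them, and all of them rose. They are Ang, Rnase2b and Pnp, which lie close to each other on chromosome 14 in the RefSeq gene order (GRCm38.p6). No gene passed as lower, although Apoe and Apoc1, given below, read far lower in double KO. An unadjusted p under 0.05 was found for 1363 genes (10.7%), of which 735 (5.78%) read higher and 628 (4.94%) lower. The tests are limma with Benjamini-Hochberg adjustment over all genes tested, with a spread shared by the 4 intact groups. Replicates of WT and ApoeKO lay closer together than those of the compared groups, as given below. The shared spread therefore understates that of the compared groups for many genes. With only the 4 arrays compared, 505 of the 12711 genes had an unadjusted limma p under 0.05. None of the 3 called genes passed there, with a limma adjusted p of 0.0602 for Ang, 0.0602 for Rnase2b and 0.725 for Pnp. The count was 0 when either WT array was left out, 107 without Dscr1KO replicate 1, 96 without Dscr1KO replicate 2 and 54 without double KO replicate 2.

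The bases upstream of the RefSeq starts of the 3 genes that rose are shown because the genes are neighbours and rose in the same comparison. Each run is the 250 bases before the start on the plus strand of GRCm38.p6, 5′ to 3′. The windows are chr14:51090827-51091076 for Ang, chr14:51162010-51162259 for Rnase2b and chr14:50944053-50944302 for Pnp. Capitals mark matches, on either strand, to the TATA box letters TATAAA, the CCAAT box letters CCAAT and the GC box letters GGGCGG, and no matches overlapped.
Ang: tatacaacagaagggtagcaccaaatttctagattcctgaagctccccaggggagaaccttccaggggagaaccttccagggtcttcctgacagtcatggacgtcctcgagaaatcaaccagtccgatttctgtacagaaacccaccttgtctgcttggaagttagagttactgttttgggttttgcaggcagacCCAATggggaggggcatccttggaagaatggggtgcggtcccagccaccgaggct
Rnase2b: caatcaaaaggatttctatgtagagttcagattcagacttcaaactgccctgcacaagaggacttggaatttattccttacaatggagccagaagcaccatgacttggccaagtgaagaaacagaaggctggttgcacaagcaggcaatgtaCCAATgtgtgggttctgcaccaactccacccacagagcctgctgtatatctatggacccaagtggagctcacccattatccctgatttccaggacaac
Pnp: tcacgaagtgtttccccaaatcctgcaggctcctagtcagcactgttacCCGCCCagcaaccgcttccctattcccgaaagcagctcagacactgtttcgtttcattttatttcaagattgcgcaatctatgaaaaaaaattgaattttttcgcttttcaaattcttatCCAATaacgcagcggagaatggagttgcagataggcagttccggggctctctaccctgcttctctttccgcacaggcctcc
Each window held 1 CCAAT box. The Pnp window also held 1 GC box, read on the opposite strand as CCGCCC, and none of the 3 held the TATA box letters. Among 32851 upstream windows of the same length, 33.8% held a CCAAT box, 32.7% a GC box and 12.4% a TATA box, so a match is common and describes the letters only.

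The arrays of the comparison differed in more than the targeted genes. Values are probe-set intensities that the authors scaled to a trimmed mean of 100 on each array, and the medians of the 4 arrays lay between 18.2 and 21.1. Corneal identity was read from Krt12, the defining keratin of corneal epithelium, at 7192.0 and 10080.3 in Dscr1KO against 7841.2 and 6034.1 in double KO. Replicates were at least 2-fold apart in 1638 genes in Dscr1KO and 1139 in double KO, against 214 in WT and 377 in ApoeKO. Xist, expressed from the inactive X chromosome, read 4104.0 and 5385.2 in Dscr1KO, 4256.9 in double KO replicate 1 and 19.6 in double KO replicate 2. Uty, Kdm5d and Eif2s3y, which lie on the Y chromosome, were high on double KO replicate 2 alone of these arrays, at 65.5, 113.0 and 521.5. The 25 photoreceptor markers on the array summed to 11064.9 on double KO replicate 1 and to 1237.9, 1339.9 and 1447.9 on the other 3 arrays, and 21 of the 25 read over 2-fold above each of the other arrays. Ighm, the immunoglobulin heavy chain of B cells, read 3243.4 on Dscr1KO replicate 1 and 32.9 to 55.9 on the other 3. Neutrophil markers (17) summed to 13672.0 to 23306.0 and blood endothelial markers (22) to 1914.6 to 2999.9 on the 4 arrays, with overlap of the 2 groups, against 679.1 to 961.7 and 285.2 to 330.2 in WT and ApoeKO. Each array was left out in turn, and Xist also entered the fit as a term, which gave 56 genes past the adjusted test, while the 5 intact arrays with Xist alone gave 0. The part of the marker lists in the results was not tested in any other way.

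**Figure D1:**
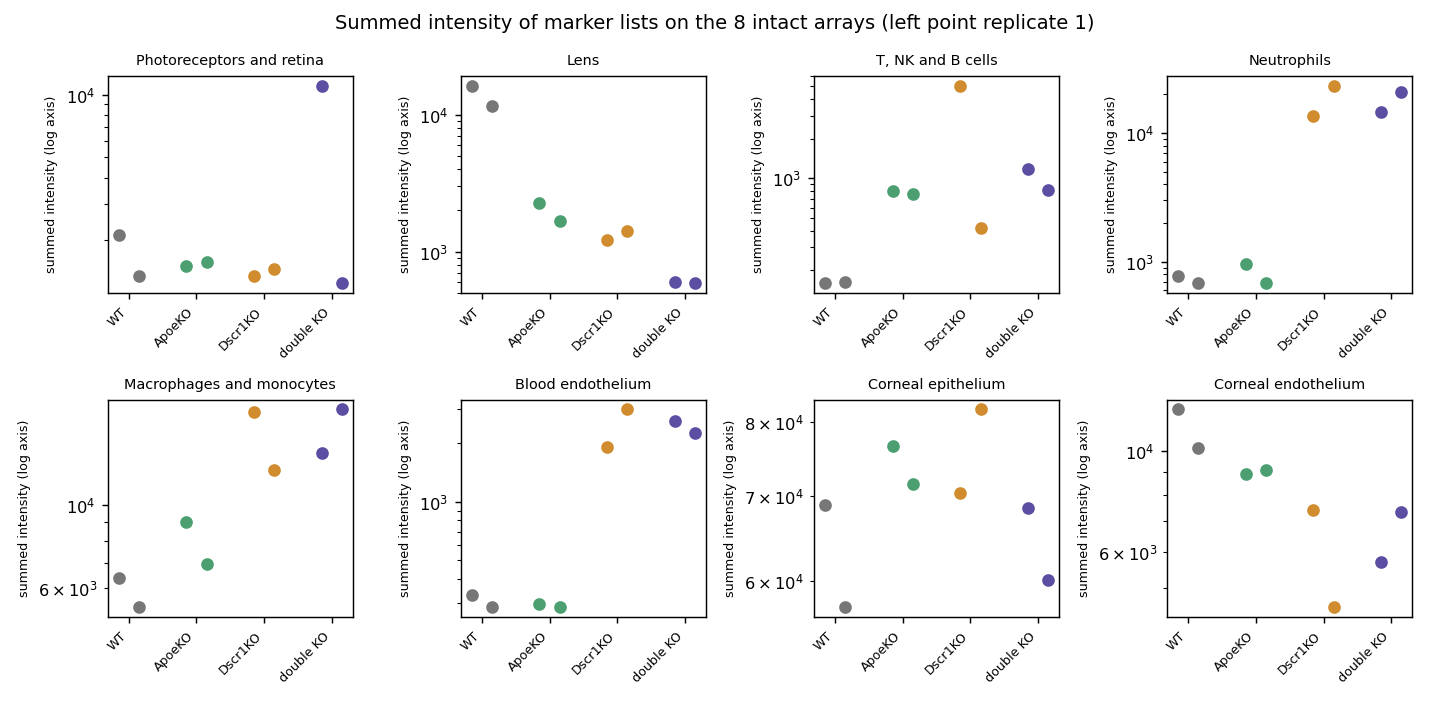
Summed intensity of 8 marker lists on a log axis (vertical) on the 8 intact arrays, 2 per genotype (horizontal), with replicate 1 as the left point of each pair. The photoreceptor sum stands at 11064.9 on double KO replicate 1, and the sum for T, NK and B cells at 5060.2 on Dscr1KO replicate 1, each above the other arrays.

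Ang encodes angiogenin, a secreted ribonuclease first known for its ability to induce vessel growth. Its brightest probe set read 1.3 and 7.9 in Dscr1KO against 959.2 and 492.6 in double KO. Both Dscr1KO values were the lowest of all 12 arrays and both double KO values the highest. The WT arrays read 114.5 and 101.5, the ApoeKO arrays 182.5 and 135.5, and the sutured Dscr1KO cornea 435.7. Ang was therefore at a low level in intact Dscr1KO corneas only, and not in the sutured cornea of the same genotype. The difference between double KO and Dscr1KO was 6.52 ± 0.45 (log2, SE, n = 2 per group, limma adjusted p = 0.00737). The size depends on the constant of 3.6 added before the log, because the Dscr1KO values lie near it, and was 7.17 with a constant of 1.2 and 5.6 with 10.2. In a fit of every probe set, the other 2 probe sets of Ang also read higher in double KO, by 4.63 (limma adjusted p = 0.00837) and by 2.47 (limma adjusted p = 0.103). The call was lost without WT replicate 1 or WT replicate 2 (limma adjusted p = 0.052 and 0.0529), arrays that enter only the estimate of the spread.

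Rnase2b encodes an eosinophil-associated ribonuclease of the same superfamily. It read 24.6 and 12.1 in Dscr1KO against 474.0 and 489.3 in double KO. No other array exceeded 8.3, so that double KO stood apart from every genotype and from the sutured corneas. Genes were tested if their mean over all 12 arrays passed a filter on low values. Rnase2b passed it only through its double KO values, and without the filter its limma adjusted p was 0.00885. The difference was 4.53 ± 0.35 (log2, SE, limma adjusted p = 0.00957). It lost its call without WT replicate 1, WT replicate 2 or double KO replicate 1 (limma adjusted p = 0.0576, 0.0583 and 0.0912). Rnase2b has close paralogs, as does Ang, and whether their probe sets tell the copies apart was not tested.

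Pnp encodes purine nucleoside phosphorylase, an enzyme of purine breakdown and salvage. It read 605.5 and 576.4 in Dscr1KO against 1617.9 and 2046.4 in double KO. Both groups lay below the other 8 arrays, which ranged from 2648.7 to 4201.3. Pnp was thus lowest in intact Dscr1KO, at an intermediate level in double KO, and at 3333.6 in the sutured Dscr1KO cornea. The difference of 1.62 ± 0.16 (log2, SE) had a limma adjusted p of 0.0421. It was the least stable of the 3 calls, with adjusted p-values of 0.15 and 0.152 without WT replicates 1 and 2, 0.187 and 0.204 without ApoeKO replicates 1 and 2, and 0.0675 without double KO replicate 1. RefSeq also lists Pnp2, a near-identical copy, and whether the probe set tells them apart was not tested.

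**Figure D2:**
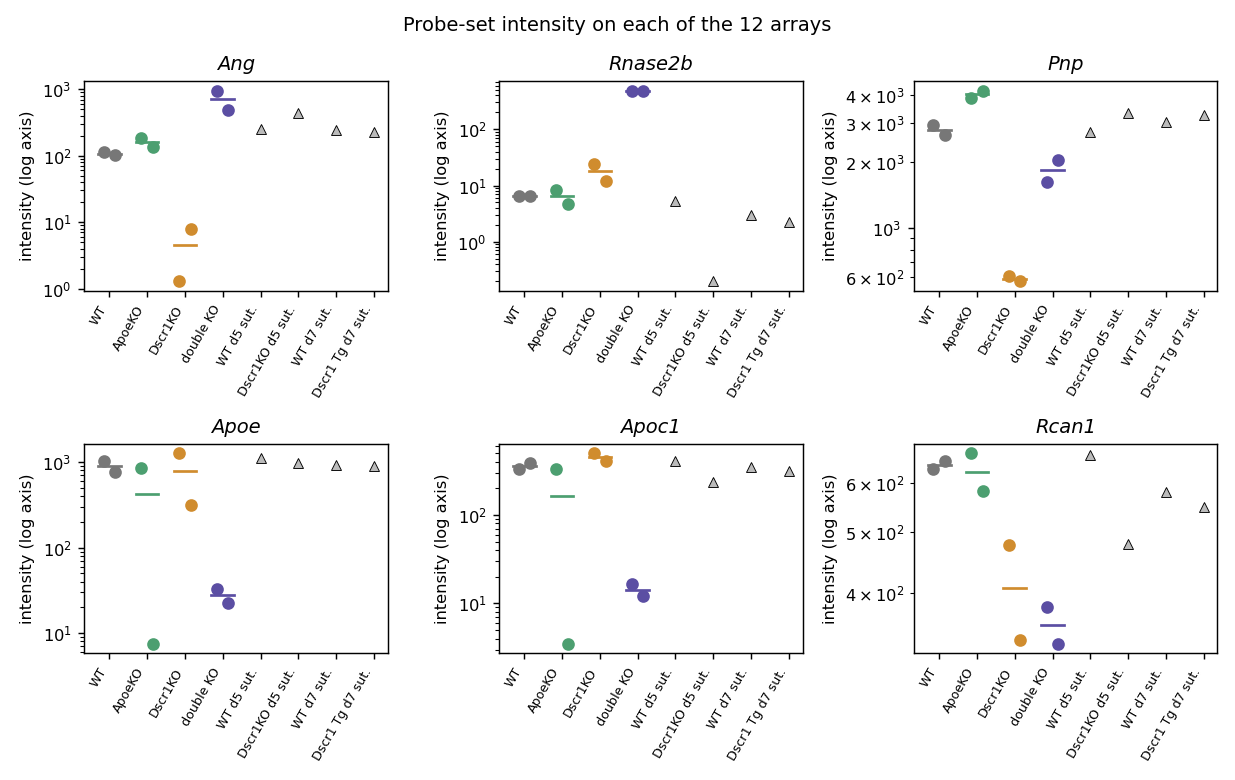
Intensity on a log axis (vertical) of 6 genes on each of the 12 arrays (horizontal), with circles for the 2 intact arrays of a genotype, a bar at their mean and triangles for sutured corneas, 1 array each. Ang is lowest in Dscr1KO (1.3 and 7.9), Rnase2b is high in double KO alone (474.0 and 489.3), and Apoe and Apoc1 are low in double KO and on the array of ApoeKO replicate 2.

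The genes between and around these 3 did not share 1 pattern. Rnase4, which encodes another secreted ribonuclease and has the same RefSeq start as Ang, read 1066.5 and 684.7 in Dscr1KO against 1295.8 and 1029.3 in double KO. Its difference of 0.43 ± 0.25 (log2, SE) did not pass (limma adjusted p = 0.576), and the groups overlap. Rnase4 was higher in both of these groups than the 103.6 to 182.2 of WT and ApoeKO, whereas Ang was lower in Dscr1KO than in WT. Rnase1, the pancreatic-type ribonuclease, read 43.0 and 22.7 in Dscr1KO against 74.3 and 100.5 in double KO, a difference of 1.36 ± 0.45 (log2, SE, limma adjusted p = 0.41). Of the 40 tested genes nearest to Ang, 20 on each side, 6 read higher and 6 lower at an unadjusted p under 0.05, against 5.78% and 4.94% of all genes, and their median difference was 0.04 (log2), against 0.01 over all genes. This window was chosen after the calls were known, and the 6 that read higher include the called genes Pnp and Rnase2b. Beyond Rnase2b the highest was Rpgrip1, which encodes a protein of the photoreceptor cilium, at 514.6 and 165.3 in double KO against 49.5 and 51.1. Its higher value lies on the array with the high photoreceptor sum, and its lower value lies near the 155.1 and 117.1 of WT. Rpgrip1 read 141.8 and 131.1 in ApoeKO and 127.6 in the sutured Dscr1KO cornea. Like Ang and Pnp, it was therefore lowest in intact Dscr1KO. On chromosome 14 as a whole 11.6% of the genes tested read higher at an unadjusted p under 0.05, against 5.78% of all genes. That share includes the 3 called genes, and the chromosome was looked at because of them.

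Both targeted genes were measured on every array. Apoe read 1272.0 and 316.8 in Dscr1KO against 32.5 and 22.7 in double KO, so that the groups do not overlap. It read 1030.5 and 776.5 in WT, 849.3 on the array labelled ApoeKO replicate 1 and 7.5 on ApoeKO replicate 2. The level on ApoeKO replicate 1 goes against its label. That on Dscr1KO replicate 2, whose labels conflict, was the lowest of the arrays whose titles do not name Apoe. On the sutured arrays Apoe lay between 905.9 and 1124.2. The difference of -4.37 ± 1.68 (log2, SE) had an unadjusted limma p of 0.0317 and did not pass (limma adjusted p = 0.458). The SE draws on the spread within ApoeKO as well, and without ApoeKO replicate 1 the adjusted p was 0.334. The sources used here do not say where the probes lie with regard to the deleted part of Apoe.

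Rcan1 is targeted in both groups. It read 477.5 and 335.9 in Dscr1KO against 379.6 and 331.7 in double KO, overlapping and without a difference past the threshold (-0.17 ± 0.20, log2, SE, limma adjusted p = 0.781). The direction turned to 0.08 without Dscr1KO replicate 1. WT and ApoeKO read between 581.3 and 668.2, above the 4 intact arrays labelled Dscr-1-/-. Rcan1 was nevertheless far above background on those 4 arrays, a level that goes against the label if the probes lie in the deleted part, and the sources used here do not say where the probes lie with regard to the deleted part of Rcan1. A dimmer probe set of Rcan1 read 13.3 and 10.5 in Dscr1KO against 20 and 12.8 in double KO. It read 30.4 and 35.2 in WT and 32.7 and 18.5 in ApoeKO, the last of these below the 20 of double KO replicate 1. Among the sutured corneas it read 13.1 in Dscr1KO and 40.6 to 66.7 in the others.

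Apoc1, the gene next to Apoe, encodes apolipoprotein C-I of the same lipoprotein particles. It read 497.3 and 403.1 in Dscr1KO against 16.6 and 12 in double KO, and 3.5 on ApoeKO replicate 2 against 327.8 on ApoeKO replicate 1. Apoc1 was thus low on the same 3 arrays as Apoe, and stayed at 403.1 on Dscr1KO replicate 2. The difference of -4.67 ± 1.42 (log2, SE) did not pass over the 8 intact arrays (limma adjusted p = 0.373), and it passed without ApoeKO replicate 1 (limma adjusted p = 0.00529) or ApoeKO replicate 2 (limma adjusted p = 0.00321).

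Other genes near Apoe on chromosome 7 read lower too. Nectin2, an adhesion protein of epithelial junctions, read 211.1 and 170.6 in Dscr1KO against 75.6 and 93.9 in double KO, with no overlap and a difference of -1.14 ± 0.24 (log2, SE, limma adjusted p = 0.305). Its values in WT and ApoeKO, 217.6 to 322.4, did not separate by label. The lowest of them, 217.6, was on ApoeKO replicate 2, the array among these with low Apoe. Of the 40 tested genes nearest to Apoe, 8 read lower and 1 higher at an unadjusted p under 0.05, against 4.94% and 5.78% of all genes. The 8 are Apoc1, Nectin2, Bcam, Mark4, Opa3, Ppp1r13l, Zfp111 and Zfp235, and the 1 higher is Zfp61. Bcam, a laminin receptor and blood group antigen, read 61.4 and 59.7 in Dscr1KO against 40.6 and 26.3 in double KO. The 2 groups did not overlap in 18 of the 40 genes with double KO lower and in 3 with double KO higher, against 16.1% and 16.4% of all genes. The median difference of the 40 was -0.25 (log2), and between -0.29 and -0.17 when each array of the comparison was left out, with 4 to 11 genes lower. This window was chosen after the values of Apoc1 and Nectin2 had been seen. Tomm40, the mitochondrial import channel gene next to them, and Clptm1 had differences near 0, -0.03 ± 0.26 and 0.09 ± 0.18 (log2, SE), whose direction turned without some arrays. Sympk, which encodes a scaffold of the machinery that forms mRNA 3′ ends and also lies on chromosome 7, is described with the lowest p-values among falling values. On that chromosome 7.14% of the genes tested read lower and 3.41% higher at an unadjusted p under 0.05, against 4.94% and 5.78% of all genes.

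**Figure D3:**
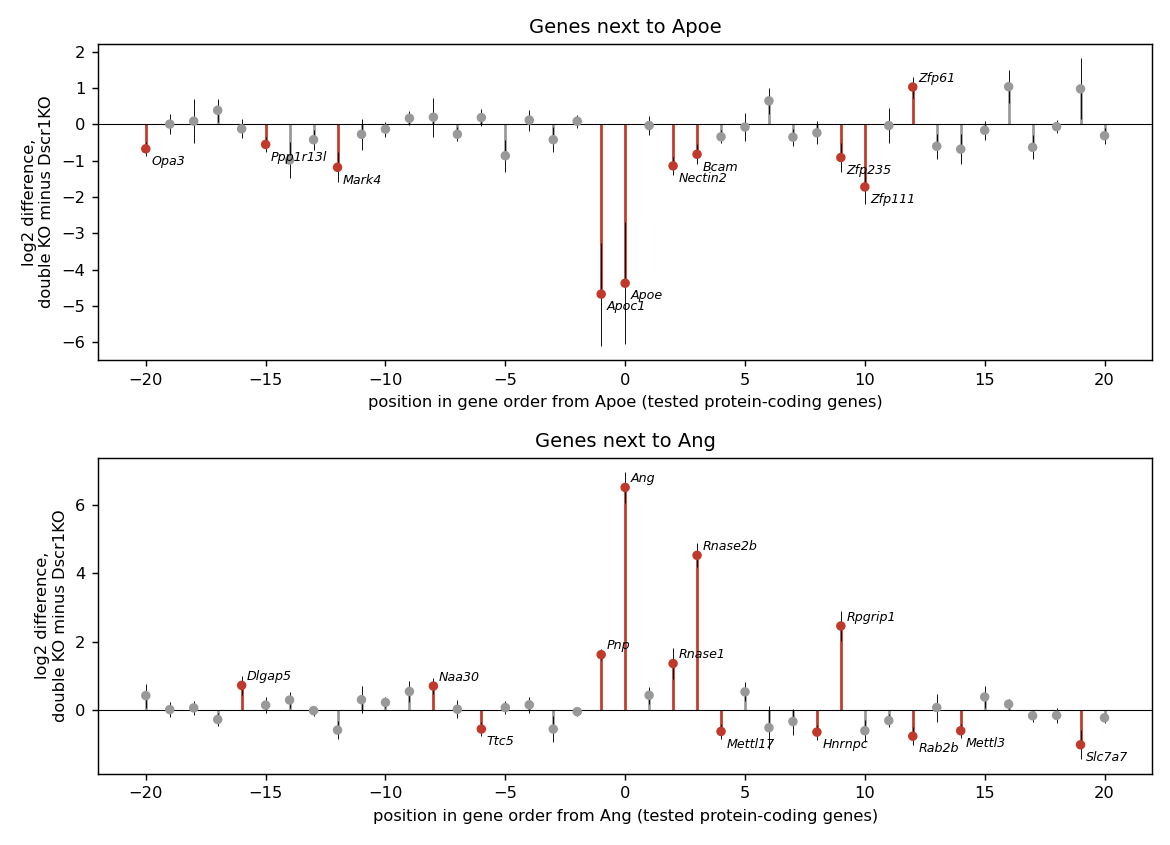
Log2 difference, double KO minus Dscr1KO, with its SE as a bar (vertical), for the tested genes in RefSeq order around Apoe and around Ang (horizontal, number of genes from the centre), in red where the unadjusted p was under 0.05. Around Apoe 28 of 40 neighbours lie below 0, and around Ang 22 of 40 lie above 0.

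The 7 genes next in order of p above 0 did not pass the adjusted test. Selenbp1, a selenium-binding enzyme that oxidises methanethiol, read 320.4 and 228.1 in Dscr1KO against 750.6 and 930.4 in double KO (1.62 ± 0.20, log2, SE, limma adjusted p = 0.15). No other array exceeded 334.4, so double KO had the highest values of the series. Serpinb12, a serine protease inhibitor of stratified epithelia, read 378.0 and 225.7 in Dscr1KO against 1826.8 and 2309.6 in double KO, and at most 5.1 on the other 8 arrays (2.80 ± 0.36). Pla2g7, the lipoprotein-associated phospholipase that inactivates platelet-activating factor, read 102.2 and 72.6 in Dscr1KO against 289.1 and 242.7 in double KO (1.58 ± 0.22). It did not exceed 97.1 in the other intact corneas. Chil4, a chitinase-like protein of type 2 inflammation, read 6.5 and 11.2 in Dscr1KO against 265.0 and 2254.8 in double KO, and at most 7.0 elsewhere (5.99 ± 0.84, limma adjusted p = 0.182). Its 2 double KO values differ widely, although both exceed all other arrays. Chil4 passed the filter on low values only through them. Mrc1, the mannose receptor of macrophages, read 99.9 and 67.7 in Dscr1KO against 325.8 and 307.0 in double KO (1.90 ± 0.27).

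The remaining 2 of these genes were low in Dscr1KO and at the WT level in double KO. Ppp1r3e, a subunit that directs protein phosphatase 1 to glycogen, read 14.3 and 11.8 in Dscr1KO, 46.2 and 68.6 in double KO, and 57.3 and 65.5 in WT (1.85 ± 0.27, log2, SE). Epm2aip1, whose protein binds the glycogen phosphatase laforin, read 109.8 and 86.5 in Dscr1KO, 241.4 and 219.3 in double KO, and 263.9 and 242.0 in WT (1.21 ± 0.18). Both read at least 48.6 and 161.4, respectively, on every sutured array, the Dscr1KO one included. Their limma adjusted p was 0.182 each. Without Dscr1KO replicate 1 the limma adjusted p of Serpinb12, Pla2g7, Mrc1 and Epm2aip1 lay between 0.0296 and 0.0358, that of Selenbp1 was 0.0231 and that of Ppp1r3e 0.0499. Without double KO replicate 1 that of Chil4 was 0.00744.

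Of the 10 genes with the lowest p below 0, none passed. Padi4, an enzyme that turns arginine into citrulline in proteins, read 187.8 and 195.4 in Dscr1KO against 67.3 and 91.5 in double KO (-1.25 ± 0.19, log2, SE, limma adjusted p = 0.182). It read 421.7 and 420.2 in ApoeKO against 242.4 and 261.6 in WT, the opposite direction, and the difference of these differences was -1.98 ± 0.26 (limma adjusted p = 0.0985). Hddc3, a phosphohydrolase, read 92.8 and 47.9 in Dscr1KO against 11.4 and 9.9 in double KO (-2.31 ± 0.35). Piezo2, the mechanically gated ion channel of touch neurons, read 50.1 and 45.8 in Dscr1KO against 12.4 and 15.1 in double KO (-1.57 ± 0.27). All other arrays read at least 37.7 for Piezo2. Dgka, a diacylglycerol kinase, read 888.8 and 1003.1 in Dscr1KO against 469.5 and 557.7 in double KO (-0.88 ± 0.15). Hibadh, an enzyme of valine breakdown in mitochondria, read 776.5 and 763.6 in Dscr1KO against 468.3 and 432.2 in double KO (-0.77 ± 0.13). For both genes double KO had the lowest values of all 12 arrays.

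Erdr1 read 1973.3 and 3212.3 in Dscr1KO against 914.5 and 1026.0 in double KO (-1.37 ± 0.24, log2, SE, limma adjusted p = 0.228). Both groups lay above the 205.1 to 605.5 of WT and ApoeKO. Sympk read 132.9 and 177.0 in Dscr1KO against 68.1 and 44.6 in double KO (-1.42 ± 0.27). Spink12, a serine protease inhibitor, read 113.9 and 74.7 in Dscr1KO against 12.8 and 26.6 in double KO (-2.11 ± 0.40). The other arrays did not exceed 22.4 for Spink12, so Dscr1KO was the group that stood apart. Car5b, a mitochondrial carbonic anhydrase, read 172.7 and 156.1 in Dscr1KO against 89.9 and 71.8 in double KO (-1.0 ± 0.19). Foxq1, a forkhead transcription factor, read 292.5 and 325.4 in Dscr1KO against 155.2 and 153.5 in double KO (-0.98 ± 0.19). The limma adjusted p of these 4 was 0.244 each, and under the alternatives run Hddc3, Dgka and Erdr1 passed only when a Dscr1KO array was left out.

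**Figure D4:**
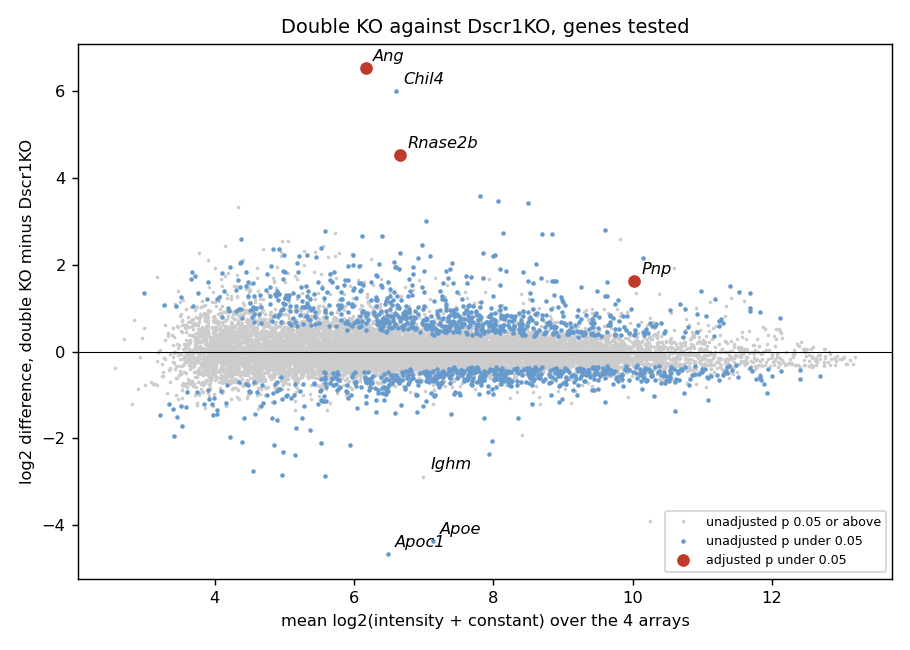
Log2 difference, double KO minus Dscr1KO (vertical), against the mean log2 intensity over the 4 arrays (horizontal) for 12711 genes, with the 3 genes past the adjusted test in red and those at an unadjusted p under 0.05 in blue. Ang stands at 6.52 and Rnase2b at 4.53, while Apoe (-4.37) and Apoc1 (-4.67) lie lowest without passing.

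Genes of lipid handling were compared next, list by list, as counts at an unadjusted p under 0.05 and medians, since no member passed the adjusted test. Over all genes tested 5.78% read higher and 4.94% lower at that cut, with a median of 0.01 (log2). The counts and medians of these lists, and of all lists that follow, are to be read beside these shares. The counts rest on the pooled spread. Some dim genes also passed the filter on low values only through the arrays where they are high, which tilts a list towards that side. Of 17 cholesterol synthesis genes tested, 6 read lower and 0 higher, and 15 of 17 differences lay below 0, with a median of -0.38 (log2). The 6 are Hmgcs1, Fdft1, Lss, Tm7sf2, Nsdhl and Dhcr7. Nsdhl, a sterol dehydrogenase of the late steps, read 561.2 and 494.6 in Dscr1KO against 277.6 and 391.8 in double KO (-0.67 ± 0.19, log2, SE, limma adjusted p = 0.363). Hmgcs1, the synthase before the rate-limiting reductase, read 3720.3 and 5262.5 in Dscr1KO against 2891.0 and 3120.9 in double KO (-0.56 ± 0.21). In both genes the groups do not overlap. The median stayed below 0 when each array was left out, from -0.60 to -0.16, but the count of lower members was 0 without double KO replicate 1, the array with the high photoreceptor sum, and 2 without Dscr1KO replicate 2.

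SREBP factors switch on sterol and fatty acid synthesis. Of 18 genes of SREBP control and fatty acid synthesis, 4 read lower and 0 higher, with a median of -0.16 (log2). Acss2, which makes acetyl-CoA from acetate, read 311.3 and 354.5 in Dscr1KO against 126.1 and 238.6 in double KO (-0.92 ± 0.28, log2, SE, limma adjusted p = 0.373). Srebf2, the SREBP of sterol synthesis, read 402.5 and 471.8 in Dscr1KO against 308.5 and 353.3 in double KO (-0.40 ± 0.16). The others were the fatty acid enzymes Elovl6 and Scd2, with differences of -0.63 and -0.66. The count was 0 without double KO replicate 1 here as well.

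LXR receptors respond to oxidised cholesterol and switch on its export. Of 16 LXR targets and efflux genes, 2 read higher and 1 lower, with a median of 0.12 (log2). Abca1, the transporter that loads cholesterol onto apolipoproteins, read 664.1 and 374.4 in Dscr1KO against 1269.5 and 1148.4 in double KO (1.27 ± 0.30, log2, SE, limma adjusted p = 0.328). All of WT and ApoeKO lay at or below 303.7. Nceh1, a cholesteryl ester hydrolase of macrophages, differed by 0.89 ± 0.36 (log2, SE). Lpcat3, which remodels phospholipids, went the other way, from 356.1 and 405.5 in Dscr1KO to 214.1 and 251.6 in double KO (-0.70 ± 0.17). The members of this list therefore did not share 1 direction, and the median was -0.13 without Dscr1KO replicate 2.

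Among other lipid genes, 1 of 13 of lipid uptake and storage read higher and 0 lower. That member was Fabp4, a fatty acid carrier of fat cells, macrophages and capillaries, at 100.8 and 359.6 in Dscr1KO against 1379.3 and 449.0 in double KO (2.02 ± 0.67, log2, SE, limma adjusted p = 0.41). Plin3, a lipid droplet coat protein, differed by -0.36 ± 0.21 (log2, SE). Of 11 receptors and uptake proteins for Apoe, 1 read higher and 1 lower, and 3 lower without Dscr1KO replicate 2. Lrp1, a large endocytic receptor of Apoe-bearing particles, read 533.7 and 505.3 in Dscr1KO against 734.9 and 691.4 in double KO (0.45 ± 0.17). Stab1, a scavenger receptor of endothelium and macrophages, read 197.9 and 178.8 in Dscr1KO against 106.5 and 115.2 in double KO (-0.75 ± 0.30). Of the 8 tested apolipoproteins and Apoe neighbours, 4 read lower and 1 higher, with the Apoe neighbours already described among them. The higher one was Apod, a lipocalin carrier, at 2445.7 and 1750.4 in Dscr1KO against 6342.0 and 4350.2 in double KO (1.34 ± 0.29, limma adjusted p = 0.305). Double KO also exceeded the 1696.9 to 2755.9 of WT and ApoeKO for Apod.

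Genes of the cornified epidermis depended on single arrays. Of 28 tested, 6 read higher and 0 lower, and the median was 0.67 (log2). Lor, loricrin of the cornified envelope, read 1862.9 and 1944.5 in Dscr1KO against 3186.5 and 3241.9 in double KO (0.75 ± 0.17, log2, SE, limma adjusted p = 0.305). WT and ApoeKO read 10.8 to 15.4 and the sutured Dscr1KO cornea 8.6, so that Lor was high in the intact corneas of these 2 groups alone. Kprp, a keratinocyte proline-rich protein, read 88.9 and 174.4 in Dscr1KO against 568.5 and 300.2 in double KO (1.70 ± 0.37). Flg, filaggrin, read 318.0 and 9.5 in Dscr1KO against 1046.5 and 574.1 in double KO (3.58 ± 1.21). The low value of Flg on Dscr1KO replicate 2 was not shared by replicate 1. Hrnr, Rptn and Lce3f completed the 6, with differences of 3.0, 1.51 and 0.91. Flg and Hrnr passed the filter on low values only through their double KO values. Without Dscr1KO replicate 1 the median of the list turned to -0.22, with 6 higher and 3 lower, and without Dscr1KO replicate 2 it was 1.43, with 21 higher and 1 lower. The summed level of the 29 members on the array was 50148.7 and 104778.0 in Dscr1KO, with the double KO sums of 93854.0 and 85933.7 between them.

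Of 15 epidermal proteases and inhibitors, 2 read higher and 1 lower, and their median of 0.28 (log2) turned to -0.32 without Dscr1KO replicate 1. The higher ones were Serpinb12, given above, and Wfdc12, a whey acidic protein with antiprotease activity, at 143.0 and 40.5 in Dscr1KO against 1025.3 and 763.4 in double KO (3.47 ± 0.54, log2, SE, limma adjusted p = 0.186). The lower one was Tmprss11e, a membrane serine protease of epithelia, with a difference of -0.68 ± 0.25 (log2, SE). Antimicrobial proteins read higher in 5 of 16 and lower in 0, with a median of 1.16 (log2). Defb3, a beta-defensin, read 552.8 and 515.8 in Dscr1KO against 2302.1 and 2490.7 in double KO (2.16 ± 0.33, limma adjusted p = 0.182), and at most 5.0 on the other 8 arrays. Defb4, Defb6, Slpi and Saa1 were the other 4, with differences of 1.40, 1.38, 1.36 and 1.60 (log2). Defb6 passed the filter on low values only through its double KO values. Saa1, an acute-phase protein, read 9.8 and 8.7 in Dscr1KO against 40.9 and 30.3 in double KO. The antimicrobial median was 0.13 without Dscr1KO replicate 2 and 0.44 without double KO replicate 1.

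Markers of the cornea itself were counted next. Of 20 corneal epithelial genes, 1 read higher and 2 lower, with a median of -0.20 (log2). Krt5, the basal keratin, read 6037.4 and 6525.0 in Dscr1KO against 4421.4 and 4925.2 in double KO (-0.43 ± 0.16, log2, SE, limma adjusted p = 0.458), with double KO below all other arrays. Gjb6, a connexin, read 125.7 and 165.6 in Dscr1KO against 261.3 and 265.0 in double KO (0.85 ± 0.20). Of 13 conjunctival and goblet cell genes, 1 read higher and 1 lower. Without Dscr1KO replicate 1 the counts were 4 and 0, and without Dscr1KO replicate 2 they were 0 and 4. Krt7, a keratin of simple epithelia, read 234.8 and 120.1 in Dscr1KO against 302.6 and 290.3 in double KO (0.80 ± 0.30). Fcgbp, a mucus protein, read 86.4 and 69.4 in Dscr1KO against 49.6 and 31.9 in double KO (-0.90 ± 0.28).

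In the stroma, 2 of 19 keratocyte genes read higher and 0 lower, with a median of -0.08 (log2). Without double KO replicate 2 the counts were 3 and 4, and the median was 0.19 without double KO replicate 1. Lum, lumican, a proteoglycan that spaces collagen fibrils, read 2445.6 and 2237.5 in Dscr1KO against 4950.4 and 4405.0 in double KO (1.0 ± 0.27, log2, SE, limma adjusted p = 0.345). The double KO values lie near the 4455.7 of WT replicate 1 and above the 2335.8 of WT replicate 2. Angptl7, a secreted protein of the corneal stroma, read 164.3 and 64.3 in Dscr1KO, 340.1 and 362.6 in double KO, and 965.4 and 674.9 in WT (1.73 ± 0.39). Of 13 corneal endothelial genes, 3 read higher and 0 lower, with a median of 0.09. Without Dscr1KO replicate 2 the counts were 2 higher and 3 lower (median -0.36), without Dscr1KO replicate 1, 5 and 0 (median 0.58), and without double KO replicate 1, 1 and 0. Slc16a1, a lactate transporter, read 268.9 and 384.4 in Dscr1KO against 769.9 and 770.7 in double KO (1.25 ± 0.20, limma adjusted p = 0.208). Car2, a carbonic anhydrase, read 144.8 and 178.8 in Dscr1KO against 592.9 and 260.7 in double KO (1.27 ± 0.46). In a whole cornea, fewer cells of a type and less RNA per cell cannot be told apart.

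Of 21 genes of wound matrix and matrix proteases, 6 read higher and 0 lower, against 5.78% and 4.94% of all genes, 18 differences lay above 0, and the median of 0.55 (log2) stayed between 0.48 and 0.60 when each array was left out. The 6 are Tagln, Lox, Mmp2, Mmp9, Mmp10 and Mmp14, and 1 was left without double KO replicate 1. Without double KO replicate 2, and without Dscr1KO replicate 1, 5 read higher and 2 lower. Mmp14, a membrane-bound collagenase, read 723.5 and 671.4 in Dscr1KO against 1556.6 and 980.3 in double KO (0.82 ± 0.23, log2, SE, limma adjusted p = 0.348). WT read 914.5 and 945.6 for Mmp14. Lox, which cross-links collagen, read 356.8 and 241.9 in Dscr1KO against 1043.4 and 513.1 in double KO, against 166.0 and 100.0 in WT (1.31 ± 0.38). Mmp2, a gelatinase, read 1608.6 and 1590.1 in Dscr1KO against 3460.7 and 2262.4 in double KO (0.81 ± 0.26).

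Of 17 lens genes tested, 8 read lower and 0 higher, with a median of -0.71 (log2), and -1.03 to -0.64 when each array was left out. The count of lower members was 3 without Dscr1KO replicate 2 and 4 without double KO replicate 2. Cryaa, the lens chaperone alpha A crystallin, read 58.4 and 109.2 in Dscr1KO against 19.7 and 2.3 in double KO (-2.83 ± 0.63, log2, SE, limma adjusted p = 0.305). Crygs and Crybb2, structural crystallins, differed by -2.86 ± 0.90 and -2.16 ± 0.68. Bfsp2, a lens filament protein, read 11.6 and 12 in Dscr1KO against 0.6 and 4.0 in double KO (-1.45 ± 0.40). The 22 lens markers on the array summed to 1216.7 and 1412.0 in Dscr1KO and to 597.3 and 584.8 in double KO.

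Of 24 macrophage and monocyte genes, 4 read higher and 1 lower, with a median of 0.54 (log2) that was -0.00 without Dscr1KO replicate 2 and 1.0 without Dscr1KO replicate 1. Gpnmb, a glycoprotein of lipid-laden macrophages and pigment cells, read 472.2 and 411.5 in Dscr1KO against 1034.0 and 1317.5 in double KO (1.40 ± 0.24, log2, SE, limma adjusted p = 0.228). Mrc1, Cd14 and C1qa were the other 3. Cd14, the endotoxin co-receptor, read 88.7 and 245.7 in Dscr1KO against 827.6 and 363.0 in double KO. The summed level of the 25 macrophage markers did not separate the groups, at 17777.4 and 12393.0 in Dscr1KO against 13761.3 and 18056.7 in double KO. Of 16 neutrophil genes, 1 read higher and 0 lower, with a median of 0.22 that was -0.22 without double KO replicate 2. That 1 was Mmp9, at 152.5 and 187.1 in Dscr1KO against 257.8 and 315.0 in double KO (0.74 ± 0.31), and Stfa2l1, a stefin, differed by 0.83 ± 0.43.

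Of 13 mast cell and eosinophil genes on the array, 4 passed the filter on low values. Cma1 did so only through its double KO values. Of these 4 genes, 2 read higher and 0 lower, with a median of 1.25 (log2). The count was 0 without double KO replicate 1, and 1 higher and 1 lower without Dscr1KO replicate 2. Cma1, a chymase, read 33.8 and 17.2 in Dscr1KO against 95.2 and 56.4 in double KO (1.46 ± 0.43, log2, SE, limma adjusted p = 0.363). Cpa3, the mast cell carboxypeptidase, read 118.7 and 33.1 in Dscr1KO against 209.1 and 174.5 in double KO (1.54 ± 0.65). Of 11 dendritic cell and MHC class II genes, 0 read higher or lower, and their median of -0.48 turned to 0.15 without Dscr1KO replicate 1. Without Dscr1KO replicate 2, 5 read lower, and without double KO replicate 2, 4 did. Ciita and H2-Aa had the lowest p, with differences of -0.93 ± 0.50 and -1.04 ± 0.61. Of 9 genes of T, NK and B cells, 1 read lower, Cd79b of the B cell receptor, at 64.0 and 19.3 in Dscr1KO against 10.4 and 15.6 in double KO. Ighm differed by -2.88 ± 1.66 and turned to 0.36 without Dscr1KO replicate 1.

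Complement and coagulation genes read higher in 2 of 17 and lower in 0, with a median of 0.55 (log2) that was 0.02 without Dscr1KO replicate 2. The count of higher members was 7 without Dscr1KO replicate 1. F5, coagulation factor V, read 5.9 and 39.2 in Dscr1KO against 89.2 and 116.7 in double KO (2.39 ± 0.64, log2, SE, limma adjusted p = 0.34). C1qa, which opens the classical complement pathway, read 534.8 and 214.4 in Dscr1KO against 590.3 and 812.9 in double KO (1.02 ± 0.42). Of 24 inflammatory cytokines and chemokines, 0 read higher and 1 lower, but 6 higher and 2 lower without Dscr1KO replicate 2 and 4 higher without double KO replicate 1. The lower one was Il33, an alarmin of epithelial nuclei, at 678.5 and 671.3 in Dscr1KO against 359.4 and 571.3 in double KO (-0.57 ± 0.23). Il33 read 170.3 and 168.4 in ApoeKO against 43.0 and 36.2 in WT, and the difference of these differences was -2.58 ± 0.33 (limma adjusted p = 0.0985). Il1f6, an epithelial cytokine of the interleukin 1 family, differed by 0.74 ± 0.34 (log2, SE). Of 18 interferon-stimulated genes, 0 read higher or lower. Without Dscr1KO replicate 1, 4 read higher (median 0.60), and without Dscr1KO replicate 2, 6 read lower (median -0.91). Irf7 and Ifit2, given as members of the list, differed by -0.39 ± 0.35 and 0.50 ± 0.51.

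Sutures are commonly used to draw vessels into the cornea, and genes of vessel growth were listed for that reason. Of 21 angiogenic factors and receptors, 3 read higher and 1 lower, among them Ang, the 1 that passed, and the median was 0.33 (log2). Without Dscr1KO replicate 1, 7 read higher and the median was 0.11. Angpt1, which steadies vessels through the Tie2 receptor, read 42.2 and 33.9 in Dscr1KO against 58.4 and 89.4 in double KO (0.87 ± 0.33, log2, SE, limma adjusted p = 0.452). Serpinf1, the vessel inhibitor PEDF, read 1208.6 and 964.8 in Dscr1KO against 1646.5 and 1743.2 in double KO (0.65 ± 0.23). Nrp2, a co-receptor for VEGF and semaphorins, read 168.2 and 178.9 in Dscr1KO against 90.3 and 126.8 in double KO (-0.68 ± 0.25). Inducers and inhibitors of vessel growth were thus found on the same side.

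Of 20 blood endothelial markers, 1 read higher and 1 lower, with a median of 0.19 (log2). Pecam1, an adhesion protein of endothelial cells, read 30.4 and 22.4 in Dscr1KO against 113.9 and 64.4 in double KO (1.59 ± 0.46, log2, SE, limma adjusted p = 0.363). Aplnr, the apelin receptor, read 350.4 and 866.6 in Dscr1KO against 59.4 and 181.3 in double KO (-2.36 ± 0.65). The 22 markers summed to 1914.6 and 2999.9 in Dscr1KO and to 2620.5 and 2269.3 in double KO, overlapping. Of 10 lymphatic endothelial genes, 2 read higher and 1 lower, and 0 higher and 2 lower without Dscr1KO replicate 1. Lyve1, the hyaluronan receptor of lymphatic endothelium and some macrophages, read 46.4 and 138.3 in Dscr1KO against 597.6 and 192.9 in double KO (2.03 ± 0.63). Reln, reelin, read 69.8 and 108.0 in Dscr1KO against 520.1 and 161.9 in double KO (1.70 ± 0.50). Of 11 pericyte and smooth muscle genes, 3 read higher and 1 lower, with a median of 0.21 that was -0.33 without Dscr1KO replicate 1. Tagln, a smooth muscle actin-binding protein, differed by 0.92 ± 0.34, and Notch3, a receptor of mural cells, by -0.60 ± 0.18.

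Of 15 calcineurin and NFAT genes, 1 read higher and 1 lower, with a median of -0.07 (log2) that was 0.17 without double KO replicate 2. Ppp3cb, a catalytic subunit of calcineurin, read 361.8 and 268.2 in Dscr1KO against 487.3 and 423.1 in double KO (0.54 ± 0.18, log2, SE, limma adjusted p = 0.411). Nfatc4, an NFAT factor, read 223.3 and 195.0 in Dscr1KO against 133.4 and 162.9 in double KO (-0.49 ± 0.20). Hypoxia and glycolysis genes read higher in 4 of 18 and lower in 0, with a median of 0.23 (log2). They are Bnip3, Slc2a3, Pfkp and Ldha. Bnip3, a mitochondrial protein induced by low oxygen, read 179.6 and 228.0 in Dscr1KO against 910.9 and 434.4 in double KO (1.62 ± 0.37). Slc2a3, the glucose transporter GLUT3, read 60.3 and 61.2 in Dscr1KO against 158.1 and 109.0 in double KO (1.07 ± 0.29). The median was 0.05 without Dscr1KO replicate 1, and 10 read higher without Dscr1KO replicate 2.

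Clock genes read higher in 5 of 16 and lower in 0, with a median of 0.24 (log2). They are Cry1 and Cry2, repressors of the clock, Nr1d2, a nuclear receptor of the loop, Bhlhe40 and Nfil3. Nr1d2 read 1133.3 and 939.3 in Dscr1KO against 1735.4 and 1482.7 in double KO (0.63 ± 0.18, log2, SE, limma adjusted p = 0.355). WT read 1706.3 and 1675.5 for Nr1d2, near double KO. Nfil3 read 54.4 and 78.1 in Dscr1KO against 289.9 and 107.8 in double KO (1.39 ± 0.47). The sources used here do not give the hour of collection. The count of clock genes that read higher was 1 without double KO replicate 1.

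Of 11 glycogen genes, 0 read higher and 2 lower, with a median of -0.19 (log2). The median was 0.24 without Dscr1KO replicate 1 and 0.19 without double KO replicate 1. It was -0.38 without Dscr1KO replicate 2 and -0.55 without double KO replicate 2. Gyg, glycogenin, which primes glycogen, read 2297.6 and 990.7 in Dscr1KO against 864.2 and 808.6 in double KO (-0.85 ± 0.34, log2, SE, limma adjusted p = 0.463), all below the 3740.4 to 4254.6 of WT and ApoeKO. Gys1, a glycogen synthase, differed by -0.90 ± 0.35 (log2, SE). In cell cycle genes (23) and immediate early genes (20), 0 members read higher or lower at an unadjusted p under 0.05, and both counts depend on the Dscr1KO arrays. Without Dscr1KO replicate 1, 4 cell cycle genes and 11 immediate early genes read lower (1 of the latter past the adjusted limma test), with medians of -0.37 and -0.87. Without Dscr1KO replicate 2, 6 of each read higher, with medians of 0.48 and 0.50. Without double KO replicate 1, 4 cell cycle genes read higher. Aurkb and Birc5, mitotic regulators, differed by 0.58 ± 0.27 and 0.51 ± 0.25, and the stress-responsive Jund and Zfp36 by -0.36 ± 0.18 and -0.49 ± 0.27. Among photoreceptor genes (15 tested) the count was also 0, although the median was 2.10 (log2). It was -0.15 without double KO replicate 1, and 13 read higher without double KO replicate 2. Rom1, a photoreceptor disc protein, read 371.7 on double KO replicate 1 and 18.7 to 25.6 on the other 3. Gnat2, the cone transducin, differed by 2.10 ± 1.07. Of the X-linked genes that escape inactivation, Kdm6a read 409.0 and 296.0 in Dscr1KO against 240.4 and 226.0 in double KO (-0.57 ± 0.20), while Kdm5c, Eif2s3x and Ddx3x differed by -0.34 ± 0.27, 0.08 ± 0.18 and 0.17 ± 0.18.

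Retinal neuron and glia, fatty acid oxidation, oxidative phosphorylation and skeletal muscle genes had 0 members with an unadjusted p under 0.05 in either direction, of 8, 14, 19 and 5 tested. The counts were 3 higher for retinal neurons and glia and 3 higher and 1 lower for fatty acid oxidation without double KO replicate 2, and 1 higher and 5 lower for oxidative phosphorylation without Dscr1KO replicate 1. In the heat shock and unfolded protein list, 1 of 18 read higher and 3 lower. Among genes of TGF-beta and BMP signalling, 2 of 22 read higher and 1 lower, and among antioxidant genes 2 of 19 read higher and 0 lower. For pigment cells and iris the counts were 2 of 10 higher and 0 lower. Adipocyte, gland and nerve lists had 1 member higher and 0 lower each, of 4, 5 and 7 tested. No erythrocyte gene passed the filter on low values, with sums of 22.1 to 36.7 over its 5 genes on these arrays.

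**Figure D5:**
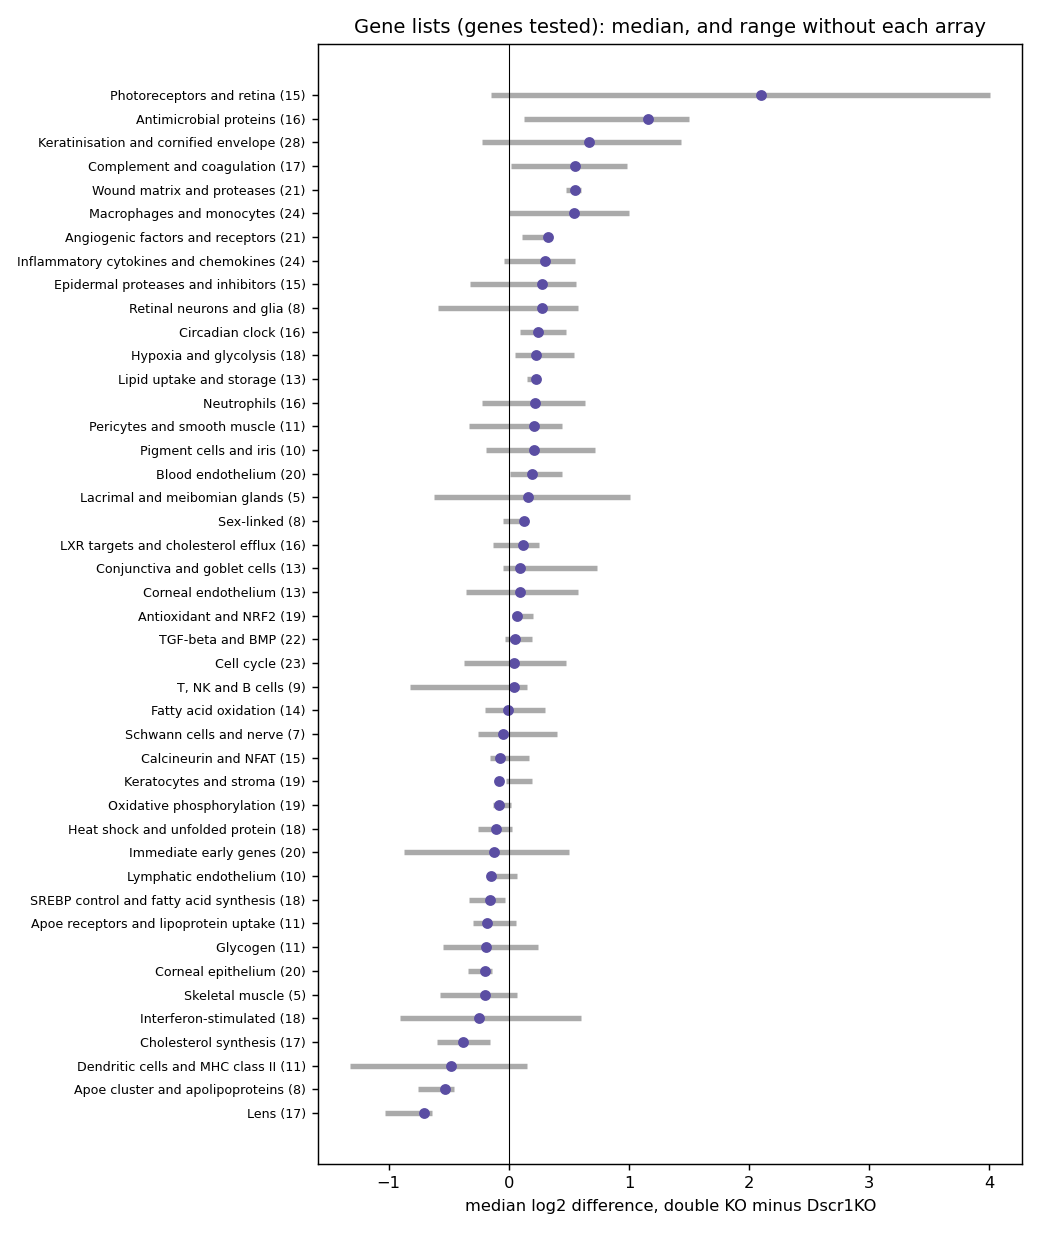
Median log2 difference, double KO minus Dscr1KO (horizontal), of each gene list with at least 5 genes tested (vertical, number tested in brackets), with a grey bar from the lowest to the highest median when each of the 4 arrays was left out. The wound matrix list stays between 0.48 and 0.60 and the lens list between -1.03 and -0.64, while the photoreceptor list runs from -0.15 to 4.01.

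Whether Apoe loss goes with another difference where Dscr1 is present was asked by subtracting ApoeKO minus WT from double KO minus Dscr1KO. Xist read 14.9 and 8.9 in WT and 4622.1 and 4598.0 in ApoeKO, and Eif2s3y 633.0 and 675.5 in WT and 9.0 and 1.5 in ApoeKO, so that within ApoeKO minus WT the Apoe label and the sex-linked difference cannot be told apart. Of 12711 genes, 1 passed (0.00787%), and 964 (7.58%) had an unadjusted p under 0.05. That 1 was Crygf, a gamma crystallin of the lens. Crygf read 2.1 and 2.4 in Dscr1KO against 3.3 and 3.9 in double KO, a difference of 0.30 ± 0.38 (log2, SE, limma adjusted p = 0.804), with all 4 values near background. It read 1522.3 and 884.9 in WT and 12.5 and 5.8 in ApoeKO, a difference of -6.56 ± 0.38 (limma adjusted p = 0.00201). The difference of differences was 6.86 ± 0.53 (log2, SE, limma adjusted p = 0.0199), so that it rests on the WT values and not on double KO. Other lens genes were high in intact WT too, with Cryaa at 802.4 and 573.7 in WT and 36.9 and 18.5 in ApoeKO. The 22 lens markers summed to 16328.3 and 11692.9 in intact WT and to 2260.7 and 1683.9 in ApoeKO. They varied among WT arrays, with sums of 1718.3 in the sutured WT cornea of day 5 and 10080.4 in that of day 7. On these sutured WT arrays Crygf read 1.0 and 158.7. When a WT array was left out its limma adjusted p was 0.357 (replicate 1) or 0.152 (replicate 2), and when an ApoeKO array was left out 0.0571 (replicate 1) or 0.056 (replicate 2). With a term for Xist it was 0.0725. Without ApoeKO replicate 1 and Dscr1KO replicate 2, the arrays of doubtful Apoe level, it was 0.0598. The count over all genes was 50 without Dscr1KO replicate 2, 19 without Dscr1KO replicate 1, 6 without double KO replicate 1 and 15 without double KO replicate 2.

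The genes that rose in double KO did not pass this test. Ang differed by 5.99 ± 0.63 and Rnase2b by 4.56 ± 0.50 (log2, SE, limma adjusted p = 0.0782 each), and Pnp by 1.08 ± 0.23 (limma adjusted p = 0.403). ApoeKO minus WT was 0.53 ± 0.45 for Ang, -0.03 ± 0.35 for Rnase2b and 0.54 ± 0.16 for Pnp, none of them past the threshold. For Apoe itself the difference of differences was -1.17 ± 2.37, and it draws on the array labelled ApoeKO replicate 1, whose Apoe level goes against its label.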

How the data were processed

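Gene expression of whole corneas was measured on 12 Affymetrix arrays from 100 ng of total RNA, per the labels' protocols. The deposited values are probe-set intensities on a linear scale, which the authors scaled on each array, as read from the values, to a trimmed mean of 100 (trim of 2% a side). The sources used here do not name the software. Of 45101 probe sets, 34958 have 1 gene symbol in the platform annotation, 932 have several and 9211 none, and the last 2 kinds were not used.

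A constant of 3.6, the 20th percentile over all arrays, was added to each intensity before log2, so that changes of dim genes are understated. Each of 18194 genes was represented by its probe set of highest mean. The 12711 with a mean log2 value over all arrays of at least 3.71 (the 40th percentile of all probe sets) were tested, with Apoe and Rcan1 kept. A gene dim elsewhere could pass through high double KO values alone. Among such genes are Rnase2b, Chil4, Rnase1, Flg, Hrnr, Defb6, Cma1 and F5. The 8 intact arrays entered 1 limma model (limma 3.58.1, R 4.3.3) with a coefficient per genotype and a variance trend over intensity, and p-values were adjusted by Benjamini-Hochberg with a threshold of 0.05. The fit was tested on simulated data. The number of arrays limits the precision. The unadjusted p under 0.05 serves to count and not to call.

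Groups follow the titles, and genotype also the labels. Replicate numbers were not treated as pairs, and the closing section gives that fit. Members and gene lists were chosen with earlier results of these data known. Genes named are Apoe, Rcan1, up to 15 calls a direction or else the 10 lowest p, up to 4 called members of each list or else the 2 of lowest p, the Apoe neighbours and sex-linked genes. Other list members and neighbours, and genes that describe single arrays, were added after their values were seen. Gene order came from RefSeq (GRCm38.p6), where 61 of the probe sets with 1 symbol found no entry, and promoter sequences are RefSeq's. Alternatives were other filters, constants, normalization, spread models, a replicate block, a term for Xist, every probe set, fewer arrays and each array left out. Leaving out WT and ApoeKO arrays, and both arrays of doubtful Apoe level, was chosen after seeing the data. Plots used python 3.11.15 and matplotlib 3.10.9.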

Additional observations from a re-analysis of the deposited data

Results flagged for a closer look

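Crygf, a lens crystallin, was the only gene of those tested whose difference between double KO and Dscr1KO departed from that between ApoeKO and WT, by the limma contrast of the 2 differences. The value was 6.86 (log2). Crygf was high in intact WT, and it read near background in both groups labelled Dscr-1-/-. It did not stand alone, since the 22 lens markers on the array summed to 16328.3 and 11692.9 in intact WT against 2260.7 and 1683.9 in ApoeKO. The sum was 1718.3 in the sutured WT cornea of day 5. WT and ApoeKO also differ in Xist on every array. The call was lost without either WT array, without either ApoeKO array and with a term for Xist (limma adjusted p between 0.056 and 0.357), and it held without each of the 4 other intact arrays.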

How the results depend on the processing

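For double KO against Dscr1KO the count of 3 genes was 1 with the stricter filter, 5 with the larger added constant, 56 with a term for Xist, and 0 with only the 4 arrays compared or only the 5 intact arrays with Xist, where 505 and 1409 genes had an unadjusted limma p under 0.05. The term for Xist makes double KO replicate 1 the only double KO array that enters the difference. Leaving out 1 array gave between 0 and 107 genes. Without either WT array 881 and 880 genes still had an unadjusted limma p under 0.05. For the difference of differences, the count of 1 was 0 with the stricter filter, 2 without a filter, 4 with the larger constant, 22 with the term for Xist, between 0 and 50 without 1 array and 0 without both arrays of doubtful Apoe level (1212 at an unadjusted limma p under 0.05). The stricter filter removed Rnase2b and Crygf, which were then not tested. It left Pnp tested, with a limma adjusted p of 0.0526. The causes of these changes in count were not tested.

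Replicate numbers did not pair the samples, since the deviations of same-numbered arrays correlated between -0.046 and 0.075. With the replicate number as a block the counts were 2 and 2, and with the block in the 4 arrays alone 0 (483 genes at an unadjusted limma p under 0.05). Pnp lost its call under the block (limma adjusted p = 0.149).

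Over 137 named genes, 2640 of 2730 alternative values kept their direction and their side of the threshold. Most of these genes were not called, so that keeping their side means staying uncalled. Leaving out a WT or ApoeKO array cannot change a difference between double KO and Dscr1KO. In 28 of the values a call was lost, all for Ang, Rnase2b, Pnp or the Crygf contrast, the only calls there were. In 42 a call was gained and in 20 the direction turned. When 1 array was left out, their ranges were -0.42 to 0.08 for Rcan1, -6.11 to 0.36 for Ighm, -0.89 to 0.1 for Irf7, -0.17 to 1.17 for Ifit2, -0.71 to 0.04 for Kdm5c, -0.09 to 0.25 for Eif2s3x, -0.02 to 0.37 for Ddx3x, -0.36 to 3.79 for Uty, -0.32 to 0.27 for Tomm40 and -0.04 to 0.22 for Clptm1. With the term for Xist, and with the 5 arrays with Xist, the values were -0.17 for Ifit2, 0.04 for Kdm5c and -0.36 for Uty. Signals near the added constant, as for Ang in Dscr1KO, limit how well the size of a difference is known.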
